A study of Sus scrofa with 2 samples.

Results

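Dividing barcodes are the single-cell barcodes of pig endometrium that carried transcripts of mitotic genes. They were chosen by the summed unique molecular identifiers (UMIs, 1 per captured transcript) of 4 genes, CENPF, CCNB1, TOP2A and MKI67, of which only CENPF and CCNB1 have a row in the files. Among barcodes of 500 or more UMIs and 300 or more genes, those in which the rule genes held 5 or more UMIs, with both genes present, were taken as dividing. By this rule 67 of 19466 barcodes were dividing, 49 of 10797 in the embryo loss library and 18 of 8669 in the implantation library. The endometrium came from a Yorkshire sow with embryo loss (EL), whose history per the labels was an abortion and 3 inseminations in a row that failed, and from a Yorkshire sow with successful implantation (EIS) at day 30. Both sows were 3 years old, and the gestation day of the EL sow is not given. Per the labels' protocols, cells were freed from some 200 mg of endometrium with collagenase II, a second protease and DNase I, strained at 30 µm and cleared of red cells, and recovery may differ between cell types. Since 1 library stands for each group, outcome cannot be told apart from sow, stage or library. No test between sows is possible, and every interval below is an exact 95% interval for counting error only.

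A cell that divides first copies its DNA and then parts the copies in mitosis. Cyclin B, encoded by CCNB1, CCNB2 and CCNB3, binds the kinase CDK1 and starts mitosis, and kinesin motors and spindle proteins move the chromosomes by their kinetochores, where CENPF sits late in the cycle. The checkpoint kinases and MAD2 hold the cell until all chromosomes are attached, after which the anaphase-promoting complex (APC) with its ubiquitin enzymes UBE2C and UBE2S marks cyclin B for destruction. In the uterus, the epithelium divides and regresses with the ovarian cycle under oestrogen and progesterone, and at implantation stroma, vessels and the trophoblast of the conceptus also grow.

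As deposited, 10936 barcodes with 43302286 UMIs came from EL and 8848 with 36069473 UMIs from EIS. The kept barcodes had a median of 2301 UMIs in EL and 2245 UMIs in EIS. The 2 libraries shared 27 barcode sequences among the kept barcodes, none of them a dividing one. RNA of secretory genes was spread over the whole EIS library: SLPI, a protease inhibitor, had a UMI in 17.4% of the EL barcodes that were not dividing, against 100% of those in EIS.

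Both genes of the rule were low in number even in the barcodes they chose. CENPF had a median of 11 UMIs per dividing barcode in EL (1 to 45) and of 13 UMIs in EIS (4 to 49). CCNB1 had a median of 4 UMIs in EL (1 to 20) and of 2 UMIs in EIS (1 to 8). CENPF exceeded CCNB1 in 40 of 49 EL and in 18 of 18 EIS dividing barcodes. The sum of both had a median of 17 UMIs in EL and 15 UMIs in EIS, and 8 EL and 4 EIS barcodes lay just inside the limit with 5 or 6 UMIs. Just outside it, 12 EL and 7 EIS barcodes had both genes but a sum of 3 or 4 UMIs, and a further 4 EL and 12 EIS barcodes had at least 5 UMIs of CENPF and none of CCNB1. The dividing barcodes held 71.7% of all CENPF UMIs in EL and 46.8% in EIS. The plot of both genes per barcode shows the EIS points along the CENPF axis.

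**Figure D1:**
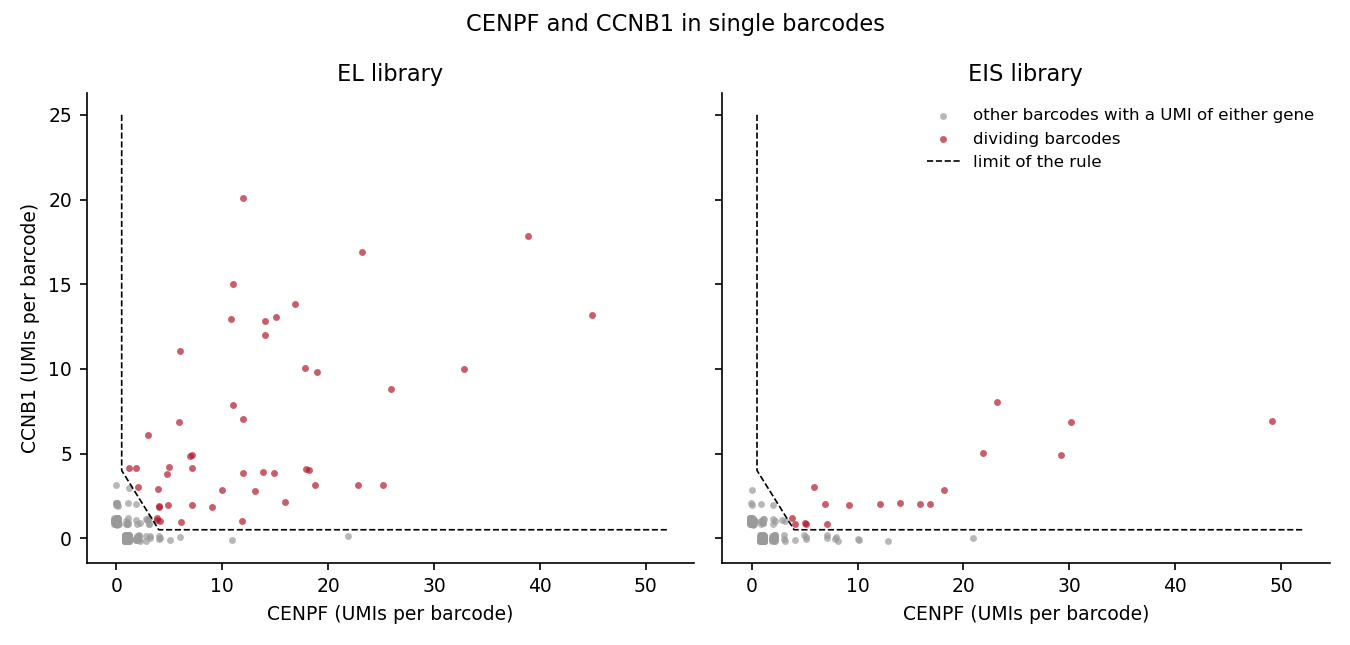
UMIs of CCNB1 (vertical axis) against UMIs of CENPF (horizontal axis) in each barcode with at least 1 of them, EL in the left panel and EIS in the right. Each point is 1 barcode, moved a little at random so that points do not cover each other, red points are dividing barcodes and grey points the others, and the dashed line marks the limit of the rule. All 18 EIS dividing barcodes have more CENPF than CCNB1 and at most 8 UMIs of CCNB1, while EL dividing barcodes reach 20.

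Dividing barcodes were 0.454% of the EL barcodes (0.336 to 0.600) and 0.208% of the EIS barcodes (0.123 to 0.328), a ratio of EL over EIS of 2.19 (1.25 to 3.99). They were deep: the median was 9307 UMIs in EL dividing barcodes and 14386 UMIs in EIS dividing barcodes, against 2291 and 2238 UMIs in the other barcodes of EL and EIS. The shares are therefore shares of barcodes deep enough to reach 5 UMIs of these genes, and the part of depth in them was looked at by thinning. With every barcode thinned to 2000 UMIs and shallower ones left out, 12 of 5864 EL barcodes (0.205%) and 3 of 4740 EIS barcodes (0.0633%) met the rule.

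The ratio between the libraries depended on the genes that chose the barcodes. With 4 other mitotic genes (UBE2C, TPX2, BIRC5 and CDK1, picked after the data had been seen) under the same limits, 63 EL barcodes (0.583%) and 48 EIS barcodes (0.554%) were found, a ratio of 1.05 (0.712 to 1.57). With at least 5 UMIs from CENPF, CCNB1 or both, 53 EL barcodes (0.491%) and 30 EIS barcodes (0.346%) were found, a ratio of 1.42 (0.890 to 2.30). The need for CCNB1 removed 4 EL and 12 EIS barcodes. Of the 63 EL barcodes chosen by the 4 other genes, 57 had a UMI of CENPF and 56 a UMI of CCNB1, and CCNB1 stood at 469 counts per 1e6 UMIs (CPM, 419 to 523). Of the 48 such EIS barcodes, 31 had CENPF and 21 had CCNB1, and CCNB1 stood at 71.8 CPM (54.8 to 92.4). A higher share of dividing barcodes in EL therefore holds for CENPF with CCNB1 and was not seen with the 4 other genes, and the part of CCNB1 itself in this was not tested.

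The same 4 genes serve as a check of the name, since the rule did not use them, though they were measured in the same barcodes. Their sum had a median of 18 UMIs in EL dividing barcodes (1 to 59) and of 16 UMIs in EIS dividing barcodes (2 to 106). At least 5 UMIs from at least 2 of them were found in 45 of 49 EL dividing barcodes (91.8%) and in 15 of 18 EIS dividing barcodes (83.3%). Among barcodes with no UMI of CENPF or CCNB1, 3 of 10463 in EL and 13 of 8407 in EIS met the same limits. These barcodes were shallow, with medians of 2265 UMIs in EL and 2179 UMIs in EIS, against 9307 and 14386 UMIs in dividing barcodes. The part of depth in this difference was not tested. TPX2, which builds the spindle around chromosomes, was present in 48 of 49 EL dividing barcodes, and CDK1, the kinase itself, in 18 of 49 in EL and 9 of 18 in EIS.

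To see which cells divide, barcodes that were not dividing were clustered with cell cycle genes left out, and each dividing barcode was placed by its 15 nearest of them. This gave 28 clusters, of which 9 had no name from the marker lists. In EL, 39 of the 49 dividing barcodes fell into 1 cluster of 1889 EL barcodes led by PON3, a lactonase-type hydrolase, CLDN10, a tight junction protein, and LYPD1, and named epithelial-like. This was 2.06% of that cluster (1.47 to 2.81). Of the other EL dividing barcodes 4 of 3041 fell into a shallow unnamed cluster led by DLX6, 2 of 900 into an epithelial-like cluster led by CCK and 1 of 1987 into an epithelial-like cluster led by JPH4. A ciliated-like cluster led by TPPP3 held 1 of 254, a vascular-like cluster led by AQP1 held 1 of 18 and a neutrophil-like cluster led by SDS held 1 of 29. No dividing barcode was found among the 1182 EL barcodes of the ciliated-like cluster led by LRRC71, which allows a share of up to 0.254%, or among the 888 of the unnamed cluster led by CYP26A1, which allows up to 0.338%. The median depth was 4213 UMIs in the PON3 cluster, against 5806 UMIs in the LRRC71 cluster and 12207 UMIs in the CYP26A1 cluster. It was lower in the CCK cluster (3746 UMIs), the JPH4 cluster (2046.5 UMIs) and the DLX6 cluster (867 UMIs). Only 187 of the 3041 EL barcodes of the DLX6 cluster had at least 2000 UMIs, and 1 of these 187 was dividing. The other dividing barcodes of that cluster had 1028, 773 and 911 UMIs. The part of depth in its share was not tested.

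CENPF summed over all barcodes of a cluster stood at 67.0 CPM in the PON3 cluster, 27.4 in the DLX6 cluster, 7.25 in the CCK cluster, 4.76 in the JPH4 cluster, 0.783 in the CYP26A1 cluster and 0.630 in the LRRC71 cluster of EL. These sums include the barcodes that the rule chose by CENPF and are a description. Over the barcodes that were not dividing, CENPF stood at 11.2 CPM in the PON3 cluster, below the 19.8 CPM of the DLX6 cluster, and at 2.08 CPM in the CCK cluster and 3.41 CPM in the JPH4 cluster. CCNB1 was also lower in the PON3 cluster than in the DLX6 cluster there, with 3.30 CPM in the PON3 and 13.6 CPM in the DLX6 cluster, as was the sum of the 4 other genes, with 30.3 CPM and 45.8 CPM. The EL barcodes of the macrophage-like cluster led by SLA-DRA1 stood at 72.1 CPM of CENPF, though 0 of 131 were dividing by the rule. Of the 63 EL barcodes chosen by the 4 other genes, 50 fell into the PON3 cluster, 2.65% of it (1.97 to 3.47). The SLA-DRA1 cluster held 3 of the 63, a like share of 2.29% of its 131 EL barcodes (0.475 to 6.55). Of the 50 in the PON3 cluster, 39 had also been chosen by the rule, so the 2 readouts largely share their barcodes there. As a measure of background, CENPF had a UMI in 0.418% of EL ciliated-like barcodes (median 5897 UMIs) and in 1.58% of EL epithelial-like barcodes that were not dividing (median 2879 UMIs over the class).

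Over classes rather than clusters, 42 of 4776 EL epithelial-like barcodes were dividing (0.879%, 0.635 to 1.19), which is 85.7% of the EL dividing barcodes. Ciliated-like barcodes had 2 of 1437 (0.139%), unnamed clusters 3 of 3928, and T or NK-like barcodes 0 of 302, which allows up to 0.993%. Both barcodes placed as ciliated-like carried ciliary markers, 73 UMIs of 8 genes in one and 55 UMIs of 7 genes in the other, and also 11 and 7 UMIs of CLDN10. The name epithelial-like rests on a mean marker score of 1.16 (log2) against a limit of 1 set after the clusters had been seen. The cluster with the most EL dividing barcodes had that name in 7 of 10 rebuilt clusterings and was unnamed in the other 3. It held only 15 of 34 with at least 10 UMIs of the rule genes and 20 of 49 at resolution 2.0. It was led by CENPF, not PON3, with barcodes thinned, cell cycle genes kept, dividing barcodes clustered jointly or each library clustered alone. At resolution 0.5, where the name was lost, 39 of the 39 remained together in a cluster led by PON3 and CLDN10.

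Read gene by gene, nearly all EL dividing barcodes carried epithelial markers. KRT8, a keratin, had UMIs in 48 of 49, CLDN7, a claudin, in 47 and KRT18 in 42. CLDN10 was present in 45 with a median of 8 UMIs, and IHH, the hedgehog ligand of uterine epithelium, in 30. In the other EL barcodes KRT8 had a UMI in 82.1%. The macrophage, monocyte and dendritic markers summed to 6.93 CPM in the 39 dividing barcodes of the PON3 cluster, with 14 of 17 at 0, and the ciliated markers to 87.8 CPM, with FOXJ1 and SNTN at 0.

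In EIS the dividing barcodes were spread over several kinds of cell. A stromal-like cluster led by APOE, COL3A1 and COL5A1 held 6 of the 18, which was 6 of its 146 barcodes (4.11%, 1.52 to 8.73). A macrophage-like cluster led by SLA-DRA1 and CCL8 held 4, out of 208 barcodes (1.92%). The remaining 8 fell 1 each into a T or NK-like cluster led by CCL5 (of 313), a lymphatic-like cluster led by MMRN1 (of 65), a vascular-like cluster led by AQP1 (of 366), a smooth muscle or pericyte-like cluster led by ACTG2 (of 824), a trophoblast-like cluster led by PAG6 (of 1559) and unnamed clusters led by EDNRB (of 1803), IGFBP2 (of 113) and MAL (of 35). None was found among 964 barcodes of the unnamed cluster led by UABP-2, SLPI and ACP5, which allows up to 0.311%, among 329 of the macrophage-like cluster led by MRC1, which allows up to 0.912%, or among 315 ciliated-like EIS barcodes, which allows up to 0.952%.

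The 4 other genes placed EIS division in the same clusters and in some more. They chose 15 of the 146 barcodes of the APOE cluster (10.3%, 5.87 to 16.4), 8 of 208 in the SLA-DRA1 cluster (3.85%), 5 of 65 in the lymphatic-like cluster (7.69%) and 7 of 1559 in the trophoblast-like cluster (0.449%). The rule had also chosen 5 of these barcodes in the APOE cluster, 3 in the SLA-DRA1 cluster and 1 in the lymphatic-like cluster. None of the 7 trophoblast-like barcodes met the rule. Summed over whole clusters, with the barcodes that the rule chose by it included, CENPF stood at 170 CPM in the EIS lymphatic-like cluster, 126 CPM in the SLA-DRA1 cluster, 49.9 CPM in the APOE cluster, 14.3 CPM in the trophoblast-like cluster and 0.235 CPM in the UABP-2 cluster. Over the barcodes that were not dividing it stood at 56.2 CPM in the lymphatic-like, 57.7 CPM in the SLA-DRA1, 6.65 CPM in the APOE and 13.8 CPM in the trophoblast-like cluster, so that the APOE cluster was then below the trophoblast-like one. The barcodes with CENPF alone were macrophage-like in 7 of the 12 EIS cases and lymphatic-like in 3.

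**Figure D2:**
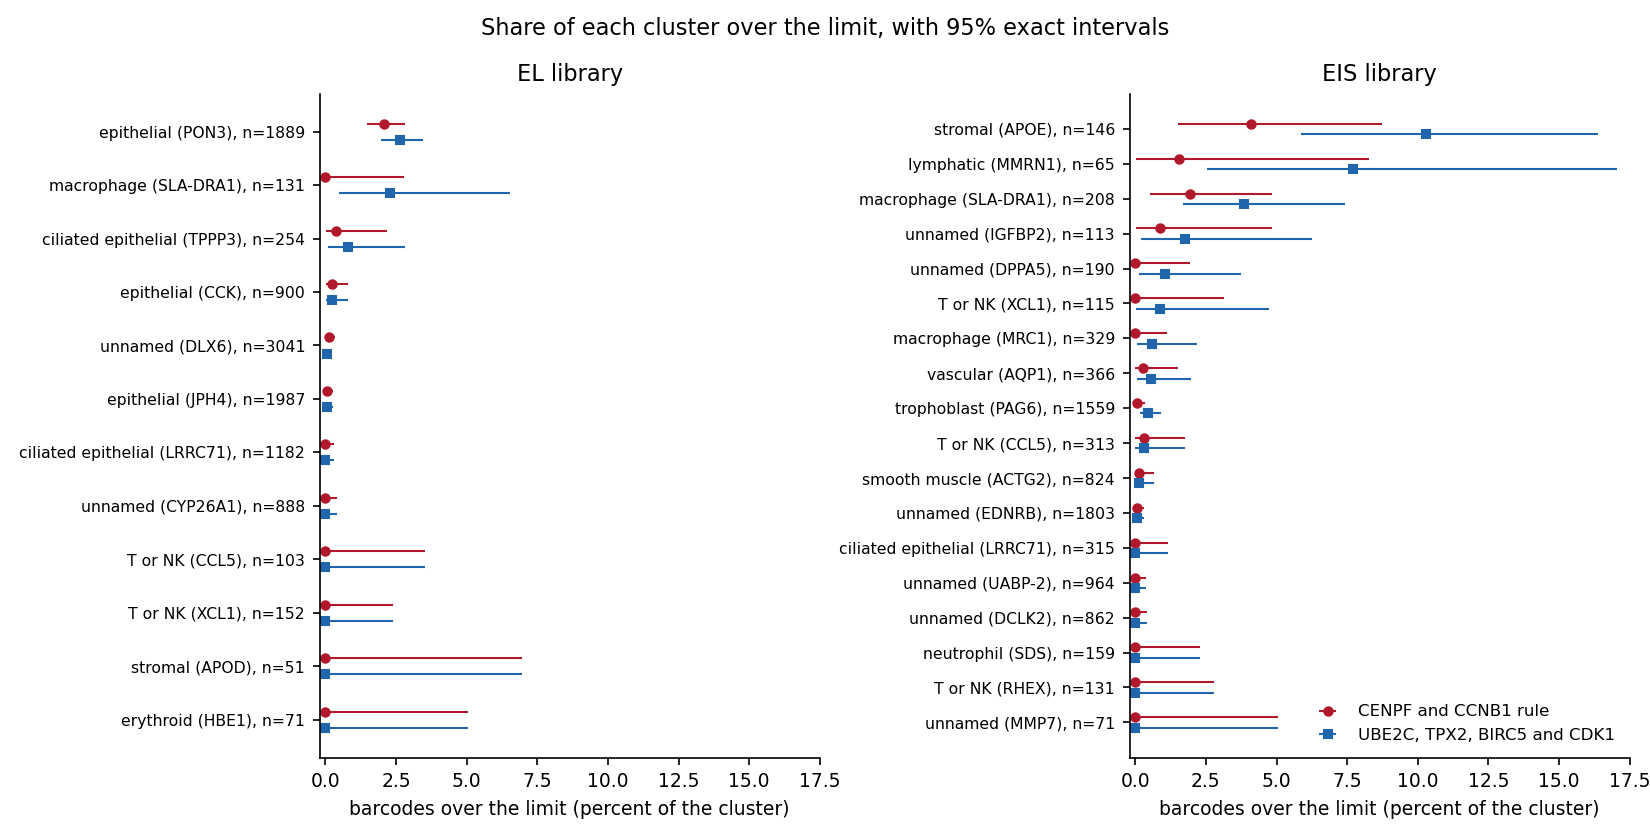
Share of the barcodes of each cluster over the limit (horizontal axis, percent), by CENPF and CCNB1 (red circles) and by UBE2C, TPX2, BIRC5 and CDK1 (blue squares), with exact 95% intervals, for clusters of at least 50 barcodes in EL (left) and EIS (right). In EL both readouts have their highest share in the cluster led by PON3 among epithelial clusters (39 of 1889 by the rule), and in EIS the clusters led by APOE, MMRN1 and SLA-DRA1 lie highest by the other 4 genes.

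The EIS stromal-like dividing barcodes had the collagen genes of the stromal marker list. COL1A1 held 1250, 452, 107, 408, 415 and 290 UMIs in the 6 barcodes, and none of them had a UMI of KRT8. CENPF held 30, 22, 18, 9, 7 and 4 UMIs in the same barcodes and CCNB1 7, 5, 3, 2, 1 and 1. MEST, an imprinted gene of mesoderm, was present in all 6 with 2 to 16 UMIs, and HAND1, a transcription factor of the heart and placenta, in 4 of 6 with at most 3. The 4 macrophage-like dividing barcodes had 112, 28, 53 and 37 UMIs of C1QB, a complement gene of tissue macrophages, with CENPF at 29, 17, 7 and 5 UMIs. The vascular-like barcode had 100 UMIs of PECAM1, an endothelial adhesion molecule, and the lymphatic-like barcode had the most CENPF of all 67, 49 UMIs, beside 115 UMIs of lymphatic and 154 of vascular markers. The barcode placed in the MAL cluster had 498 UMIs of epithelial and 148 of trophoblast markers. KRT18 is on both lists and held 111 UMIs of each sum. Among the other trophoblast markers GATA3 held 11 UMIs, GATA2 held 2 and PAG6 held 0.

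Some dividing barcodes carried markers of more than 1 class. At least 4 epithelial markers together with at least 4 of a non-epithelial class were found in 2 EL barcodes, those placed as neutrophil-like and vascular-like, and in 4 EIS barcodes, those placed as smooth muscle-like and trophoblast-like and those in the EDNRB and IGFBP2 clusters. The trophoblast-like one had 517 UMIs of stromal, 137 of trophoblast and 123 of epithelial markers. KRT18, on both the trophoblast and the epithelial list, held 36 UMIs of each sum, and PAG6, on the trophoblast list alone, held 74. The smooth muscle-like one had only 8 UMIs of smooth muscle markers, against 165 of stromal and 28 of epithelial markers. The EL neutrophil-like one had 8 UMIs of neutrophil, 14 of macrophage and 24 of epithelial markers. The names of both come from their neighbours, and their own markers do not bear them out. No dividing barcode was among the 933 EL and 601 EIS barcodes with the highest Scrublet doublet scores. Without the barcodes of mixed markers, 42 of 47 EL dividing barcodes (89.4%) were epithelial-like and 6 of 14 EIS dividing barcodes (42.9%) stromal-like. The part of doublets and of free RNA in these barcodes was not tested.

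**Figure D3:**
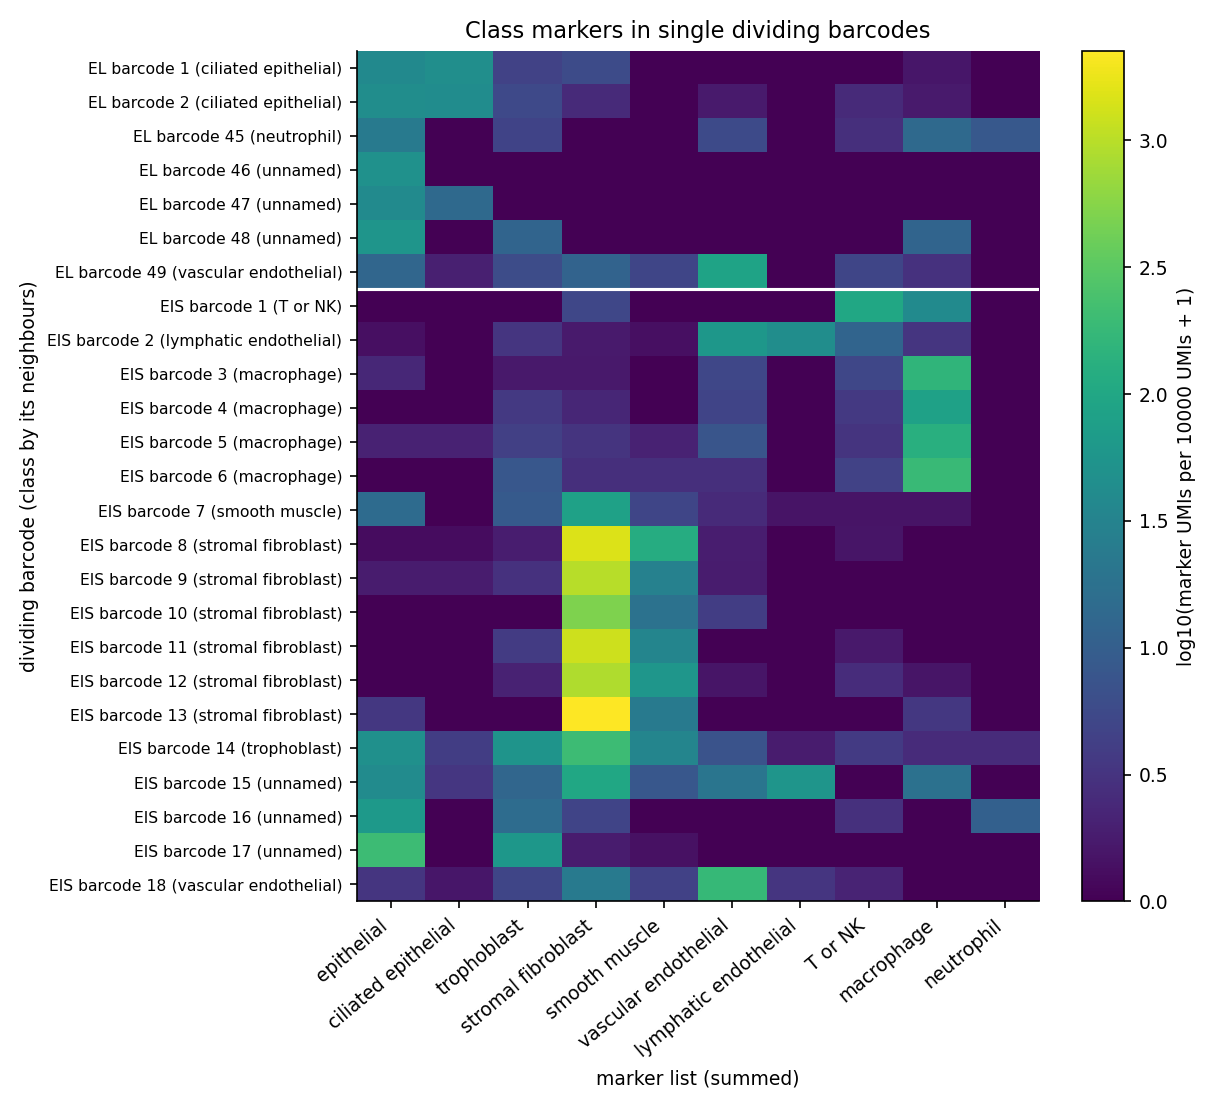
Summed marker UMIs per 10000 UMIs of the barcode (colour, log10 of the value plus 1) in the 7 EL dividing barcodes placed outside the epithelial class and all 18 EIS dividing barcodes (rows, EL above EIS), by marker list (columns). EIS rows fall into 6 stromal, 4 macrophage and 8 further barcodes of other classes.

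The 39 dividing barcodes of the PON3 cluster were then set beside the other 1850 EL barcodes of that cluster, which shows what the transcriptome of a dividing epithelial barcode holds. The rule chose these barcodes by 2 mitotic genes, so every value is a description. Levels are CPM of the summed UMIs. A gene is counted as measured where it had at least 20 UMIs, or as many at equal depth in the other barcodes. It is counted as higher or lower where it also differed by over 2-fold. Genes scarce in the other barcodes were measured only where the dividing barcodes held 20 UMIs. For these a higher call follows largely from the filter, so the counts of higher among measured genes are a description. Of 4422 genes measured, 418 were higher (9.45%) and 267 lower (6.04%), with a median log2 ratio of 0.07. The same contrast over the whole epithelial-like class, 42 against 4734 barcodes, had 452 of 4872 genes higher (9.28%) and 443 lower (9.09%). The median depth was 9307 UMIs in the dividing barcodes and 4213 UMIs in the others of the cluster, and the part of depth in the ratios was not tested.

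Genes of the mitotic entry switch were far higher. CCNB2 stood at 180 CPM in dividing and 0.989 CPM in other barcodes of the cluster (ratio 182, 91.2 to 413), and CCNB3 had 67.0 CPM in dividing barcodes and no UMI in the others, at least 203-fold higher against 3 UMIs. CDK1 stood at 60.0 CPM and 0.439 CPM. CDC25B, a phosphatase that activates CDK1, was 42.1-fold higher, and the CDK-binding proteins CKS1B and CKS2 were 7.72-fold and 2.83-fold higher. In all, 6 of 9 measured cyclins and CDKs were higher and none lower. CCND1, the cyclin of growth factor input, had 166 CPM and 95.4 CPM (ratio 1.74) and CDK4 166 CPM and 191 CPM (ratio 0.870), both within 2-fold.

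All 8 measured kinases and checkpoint genes, of 9 with a row, were higher, with a median log2 ratio of 5.48. The whole list, with no filter, summed to 1432 CPM in dividing and 107 CPM in other barcodes. BUB1, a checkpoint kinase at kinetochores, stood at 229 CPM in dividing and 2.09 CPM in other barcodes (ratio 110), BUB1B was 106-fold higher, and AURKB, the kinase of the chromosomal passenger complex, 64.7-fold. MAD2L1 and BUB3, which bind unattached kinetochores, were 14.6-fold and 3.90-fold higher. Kinetochore and centromere genes were higher in 10 of 12 measured cases. CENPA, the histone that marks centromeres, was 170-fold higher, CDCA8 and BIRC5, partners of AURKB, 235-fold and 26.3-fold, NUF2, which holds microtubules, 22.9-fold, and CENPH and MIS12 were within 2-fold. BIRC5 had a UMI in 39 of 39 dividing barcodes and in 5.68% of the others.

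Spindle and motor genes were higher in 16 of 16 measured cases, of 18 with a row, with a median log2 ratio of 6.06. The whole list, with no filter, summed to 4217 CPM in dividing and 158 CPM in other barcodes. TPX2 stood at 769 CPM in dividing and 9.23 CPM in other barcodes (ratio 83.3, 65.4 to 107) and was present in 39 of 39. KIF23, a motor of the central spindle, was 183-fold higher, KIF11, which pushes the poles apart, 74.5-fold, DLGAP5, a spindle assembly factor, 59.5-fold, PRC1, which bundles the midzone, 18.5-fold, and KPNA2, an importin, 23.2-fold. Cytokinesis genes were higher in 3 of 4 cases, among them RACGAP1 (138-fold) and CEP55 (98.8-fold), which act on the cleavage furrow and at abscission. Genes of chromosome structure were higher in 5 of 8, with SMC4 of condensin 10.5-fold and RAD21 of cohesin 3.86-fold higher and SMC1A, SMC3 and STAG2 within 2-fold.

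Genes of mitotic exit divided by kind. UBE2C stood at 788 CPM in dividing and 3.08 CPM in other barcodes (ratio 256, 174 to 391), UBE2S was 9.11-fold higher and CDCA3 152-fold. The APC subunits ANAPC5, ANAPC13, CDC16 and CDC27 were all within 2-fold, so 6 of 10 measured members of the list were higher. Histones, chaperones and tubulins were higher in 8 of 11 cases by less: HMGB2, a chromatin protein of dividing cells, 16.6-fold, the histone variant gene H2AFZ 6.87-fold, TUBB 3.21-fold and PTMA 2.56-fold. STMN1, which destabilises microtubules, had 3748 CPM and 1920 CPM (ratio 1.95).

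Genes of DNA copying were measured in few cases, 4 of the 27 with a row. GINS2 and RPA2 were 2.34-fold and 2.24-fold higher, and PCNA, the sliding clamp, had 55.4 CPM and 32.3 CPM (ratio 1.72, 1.08 to 2.60) and a UMI in 12 of 39. In nucleotide supply TK1 was 39.6-fold and DUT 3.92-fold higher. PCLAF, a partner of PCNA, was 42.5-fold higher. Per barcode, the sum of all replication genes with a row had a median of 7 UMIs in EL dividing barcodes (0 to 55) and of 12 UMIs in EIS dividing barcodes (0 to 43), while the spindle list had a median of 38 UMIs in EL (1 to 127) and 49.5 UMIs in EIS (4 to 203). The plot of listed genes in the cluster sets both levels against each other.

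**Figure D4:**
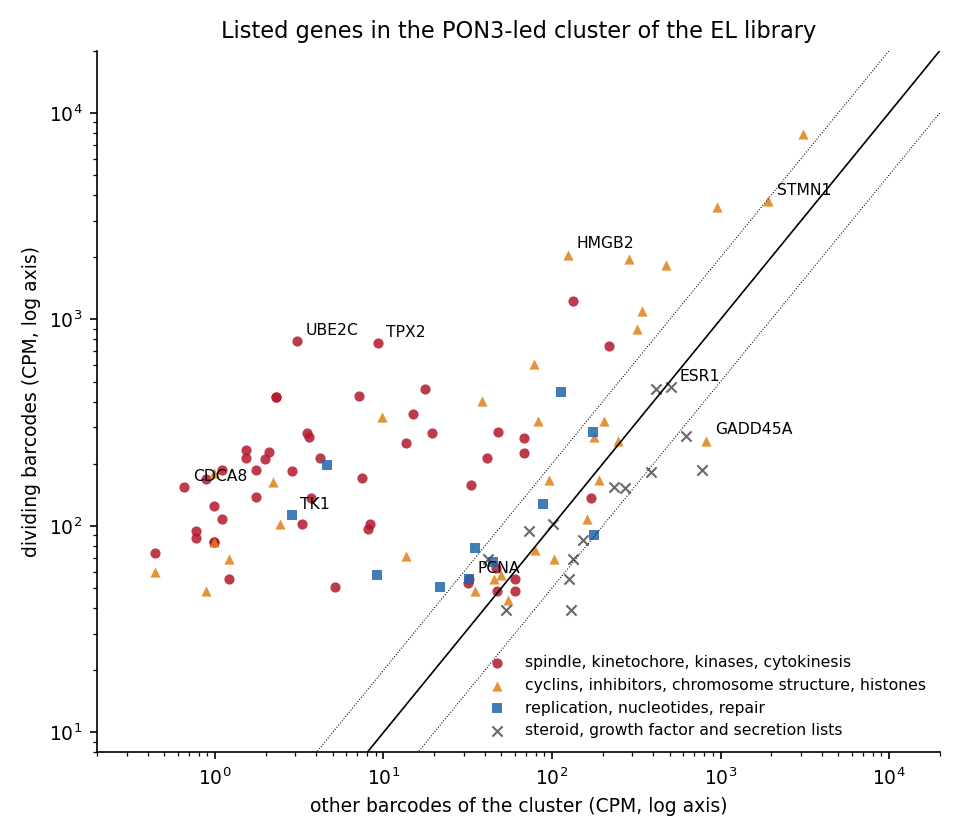
Level in dividing barcodes (vertical axis, CPM, log axis) against that in other barcodes (horizontal axis, CPM, log axis) of the EL cluster led by PON3, 1 point per measured named gene with UMIs in both, coloured by kind of list. The solid line marks equal levels and the dotted lines 2-fold. Red points (spindle, kinetochore, kinases, cytokinesis and mitotic exit) reach up to 256-fold above the line, while PCNA and ESR1 lie within the dotted lines.

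Of genes that hold cells back, CDKN3, a phosphatase of CDKs that peaks in mitosis, was 34.5-fold higher, and GADD45A, a stress-induced brake, was lower, 259 CPM in dividing and 825 CPM in other barcodes (ratio 0.313, 0.258 to 0.378). Over the whole epithelial-like class GADD45A had a ratio of 0.527, within 2-fold. Leaving the 2 rule genes aside, 67 of 93 measured genes of the cell cycle lists were higher in the cluster and 1 was lower, and over the class 71 of 97 were higher and 1 lower.

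Steroid receptors did not part dividing from other barcodes by over 2-fold. ESR1, the oestrogen receptor, had 469 CPM in dividing and 508 CPM in other barcodes of the cluster (ratio 0.922, 0.797 to 1.06), with UMIs in 38 of 39 and in 82.6%. PGR, the progesterone receptor, had 94.7 CPM and 72.6 CPM (ratio 1.30, 0.927 to 1.79). IHH, induced by progesterone in the mouse uterus, and FKBP5, induced by steroid hormones, had ratios of 0.564 and 0.667, and HSD11B2, which inactivates cortisol, one of 0.556, so 0 of 5 measured members of the list passed 2-fold, and the list had a median log2 ratio of -0.58. Of 6 measured genes of growth signals, HES1, a Notch target, and CCN2, a matrix-associated growth factor, were lower (0.302 and 0.437), and the Wnt-side receptor LGR4 had a ratio of 1.01. Of 4 secretory genes SAL1, a lipocalin, stood at 187 CPM and 775 CPM (ratio 0.241), CTSL and TIMP1 were 0.471 and 0.440, and RBP4, a retinol carrier, had a ratio of 1.12. The epithelial markers together stood at 2924 CPM in dividing and 4307 CPM in other barcodes of the cluster.

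Outside the lists, the largest ratios in the epithelial-like class were those of DEPDC1 (320, 137 to 913), a mitotic gene, LMNB1 (39.0), the B-type nuclear lamin, MYEF2, MXD3, a MAX partner, REEP4, which clears membrane from chromosomes, ARHGEF39, TRIM59, AOX1, an aldehyde oxidase, DDX39A, an RNA helicase, and TRIP13, which turns the checkpoint off. Within the PON3 cluster the ratios of these 10 genes ran between 8.64 and 237. The smallest in the class were those of CCK (0.0655) and NMB (0.147), both peptide hormones, then ZNF821, COLGALT2, TP53INP1, OGDH, KLF4, a factor of epithelial differentiation, CLGN, NPDC1 and SLC30A2. CCK leads another cluster than the one that held most dividing barcodes. Within the PON3 cluster KLF4 stood at 50.8 CPM in dividing and 408 CPM in other barcodes (ratio 0.124, 0.0779 to 0.189), while NMB and CLGN were within 2-fold (0.766 and 0.514).

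The stromal-like dividing barcodes of EIS, 6 against 140 others of the APOE cluster, had the mitotic genes in common with the EL ones. They were at like depth, 16241 UMIs at the median in dividing and 14581 UMIs in other barcodes. Of 819 genes measured 88 were higher (10.7%) and 29 lower (3.54%). CENPF stood at 813 CPM and 6.65 CPM, TPX2 was 57.9-fold higher (33.7 to 104), UBE2C 40.4-fold (27.8 to 59.5), HMGB2 11.8-fold and STMN1 11.1-fold. Spindle genes were higher in 8 of 8 measured cases, of 18 with a row, and APC and exit genes in 4 of 4, of 16 with a row. The whole spindle list summed to 3649 CPM in dividing and 177 CPM in other barcodes. Its genes were measured only through their level in dividing barcodes, so the 8 of 8 follows largely from the filter. CDKN1C, a CDK inhibitor that is imprinted in mammals, was lower at 226 CPM in dividing and 659 CPM in other barcodes (ratio 0.343, 0.221 to 0.508), with UMIs in 5 of 6 and 88.6%. HAND2, a progesterone target in mouse uterine stroma, had 172 CPM and 94.1 CPM on 19 UMIs in the dividing barcodes. Stromal markers summed to 116411 CPM in dividing and 96058 CPM in other barcodes and epithelial markers to 36.1 CPM and 109 CPM.

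The 4 macrophage-like dividing barcodes of EIS, against 204 others of the SLA-DRA1 cluster, gave 316 measured genes, of which 48 were higher (15.2%) and 44 lower (13.9%). The depth was 8361 UMIs at the median in dividing and 3574 UMIs in other barcodes. UBE2C was 20.0-fold higher, KPNA2 19.0-fold, STMN1 8.36-fold, DUT 7.16-fold, HMGB2 5.51-fold and H2AFZ 3.92-fold, and histones and chaperones were higher in 6 of 7 cases. The genes of secretion that were lower were SLPI (0.417), UABP-2 (0.353) and ACP5 (0.443), which nearly every EIS barcode carried, and TIMP1, which had no UMI in dividing barcodes against 615 CPM in the others, at most 0.133 of it. Macrophage markers summed to 13871 CPM in dividing and 16382 CPM in other barcodes.

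The 49 EL and the 18 EIS dividing barcodes were last set against each other. They differ in cell type, epithelial-like in EL and mixed in EIS, so a ratio of EL over EIS compares mixtures of cells as well as libraries. No class had 20 dividing barcodes in both libraries, and the contrast could not be made within a class. Here a gene was measured where both libraries together had at least 20 UMIs of it. Of 6139 such genes, 1612 were higher in EL (26.3%) and 719 lower (11.7%), with a median log2 ratio of 0.41. Of 120 measured genes of the cell cycle lists, 9 were higher in EL and 9 lower, both under these shares.

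Most of the mitotic apparatus was at like levels in the dividing barcodes of both libraries. Both groups were chosen by the same limit on mitotic UMIs, so this is a description of chosen barcodes. Among barcodes chosen by the 4 other genes, 28 of 148 cell cycle genes were higher in EL and 22 lower. Of all 8378 genes measured there, 2048 were higher and 1174 lower. Of 17 measured spindle genes 16 were within 2-fold (median log2 ratio 0.16), as were 15 of 16 kinetochore genes (0.16) and all 4 cytokinesis genes. KIF23 had 376 CPM in EL dividing barcodes and 380 CPM in EIS dividing barcodes, HMGB2 at 1974 CPM and 1929 CPM, UBE2C at 773 CPM and 906 CPM, and TPX2 at 746 CPM and 487 CPM (ratio 1.53, 1.26 to 1.88). CENPF, used by the rule, had 1201 CPM in the EL and 984 CPM in the EIS dividing barcodes.

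A few cell cycle genes differed by more. CCNB1, also used by the rule, had 611 CPM in the EL and 195 CPM in the EIS dividing barcodes (ratio 3.13, 2.34 to 4.25), while CCNB2 stood at 166 CPM and 153 CPM (ratio 1.08, 0.742 to 1.60). CCND1 was 3.99-fold higher in EL (2.11 to 8.30) and CCND2 lower (0.370, 0.214 to 0.632). The CDK inhibitors CDKN1C (0.0623) and CDKN2C (0.246) were lower in EL, as was CDK1 with 56.5 CPM in EL against 117 CPM in EIS (ratio 0.482, 0.282 to 0.818). PBK, a mitotic kinase, had 91.5 CPM in EL against 263 CPM in EIS (ratio 0.348), and MYC at 42.8 CPM and 92.4 CPM (ratio 0.464). STMN1 was 2.75-fold higher in EL (2.46 to 3.08). Replication genes had a median log2 ratio of -0.70 over 12 genes, of which DNMT1 and CLSPN were lower and the rest within 2-fold. PCNA had 52.6 CPM in EL against 99.5 CPM in EIS (ratio 0.529, 0.300 to 0.930) and had a UMI in 14 of 49 EL and 13 of 18 EIS dividing barcodes.

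**Figure D5:**
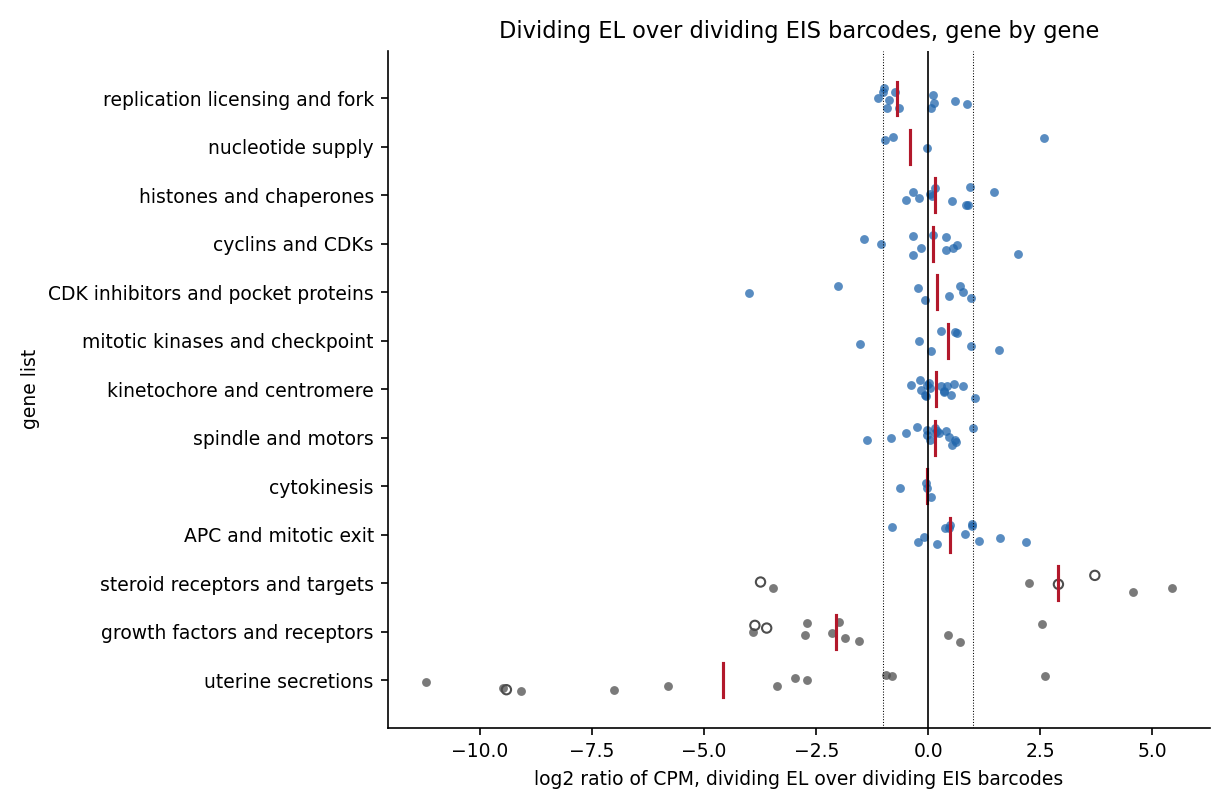
Log2 ratio of CPM in EL over EIS dividing barcodes (horizontal axis), 1 point per measured named gene, in rows by gene list. Open circles are bounds for genes with no UMI in 1 library, red bars the medians, and dotted lines 2-fold. Spindle, kinetochore and cytokinesis genes lie around 0, 5 of 7 steroid genes to the right and 9 of 12 secretory genes to the left.

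Genes of steroid hormone response differed in both directions. ESR1 stood at 465 CPM in EL dividing barcodes and at 10.7 CPM, 3 UMIs, in EIS (ratio 43.7, 14.8 to 213), with UMIs in 48 of 49 EL barcodes and in 2 of 18 EIS barcodes. PGR had 79.8 CPM in EL and no UMI in EIS, at least 7.49-fold higher against 3 UMIs, and IHH had 140 CPM and none, at least 13.2-fold higher. HAND2 had no UMI in EL and 78.2 CPM in EIS, and NR2F2, a nuclear receptor of stroma, had 7.79 CPM and 85.3 CPM (ratio 0.0913). In this list 5 of 7 genes were higher and 2 lower in EL, with a median log2 ratio of 2.91. Growth factors and receptors were higher in EL in 1 of 14 cases, LGR4 (5.81, 2.34 to 18.6), and lower in 10, among them the VEGF receptor KDR and the ligand PDGFA, both with no UMI in EL dividing barcodes, IGFBP5 (0.0668) and IGFBP2 (0.153). KDR stood at 71.1 CPM in EIS and PDGFA at 85.3 CPM. For 5 of these 10 genes most EIS UMIs lay in 1 barcode, 17 of 20 for KDR, 19 of 24 for PDGFA and 30 of 41 for IGFBP5, as did 15 of 24 for NR2F2. In the remaining EIS dividing barcodes KDR stood at 11.3 CPM, PDGFA at 19.5 CPM, IGFBP5 at 43.2 CPM and NR2F2 at 35.3 CPM, with too few UMIs left to count as measured.

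Secretory genes were lower in EL in 9 of 12 cases and higher in 1, SAL1, with 173 CPM in EL and 28.4 CPM in EIS. SLPI had 38.9 CPM in EL dividing barcodes and 21065 CPM in EIS dividing barcodes, and UABP-2 had no UMI in EL and 3979 CPM in EIS. These are the genes spread over the whole EIS library: UABP-2 had a UMI in 0.130% and ACP5 in 4.90% of the EL barcodes that were not dividing, and in 99.4% and 99.7% of those in EIS. The EIS level of SLPI rests on 2 barcodes of mixed markers, the smooth muscle-like one with 3951 and the trophoblast-like one with 1241 of 5929 UMIs. Without them SLPI stood at 3127 CPM, with a median of 35.5 UMIs per barcode and at most 195. Without the 2 highest barcodes of each, UABP-2 stood at 726 CPM and ACP5 at 950 CPM, against 4622 CPM of ACP5 over all 18. Of the 9 secretory genes lower in EL, 7 had most of their EIS UMIs in 1 barcode. The part of free RNA in these levels was not tested. Outside the lists the largest ratios belonged to LRATD1, CLDN10, FAM162B (1585 CPM in EL and 21.3 CPM in EIS), TPD52L1, CES3, CADPS2, SCD5, ALDH1A1, a retinoic acid enzyme with 500 CPM in EL and no UMI in EIS, CRYM, which binds thyroid hormone, and NPNT. CLDN10 stood at 884 CPM in EL with no UMI in EIS, at least 82.9-fold higher. The smallest ratios were those of the stromal collagens COL1A1, COL3A1, COL1A2 and COL12A1, of SPARC and APOE and of the secretory genes, with COL1A1 at 1.95 CPM, 1 UMI, in EL and 11003 CPM in EIS (ratio 0.000177, 4.48e-06 to 0.000987).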

How the data were processed

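Per gene and barcode, the deposited matrices of the 2 libraries (10x 3′) hold UMI counts, with 26881 features each, of which 16128 carry no gene symbol; no identifier matched the gene tables used here. The authors' values have no normalization. The submitters' processing notes name Cell Ranger 2.1.1, and the matrix header names cellranger 6.1.0; the genome build is not given in the sources used here. Symbols with several features were summed (26828 rows).

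Barcodes that were not dividing were log-normalised, reduced to 2000 variable genes without cell cycle genes and 30 components (scikit-learn 1.9.0) and clustered (scanpy 1.11.5, leidenalg 0.10.2, resolution 1). A dividing barcode took the class of at least 8 of its 15 nearest barcodes. Cluster names came from the markers of 15 classes; the score limit of 1 (log2) was set after clusters had been seen. Barcodes with high Scrublet doublet scores stayed in, and an alternative removes them. UMIs were summed and scaled to CPM. Shares have Clopper-Pearson, levels Poisson and ratios exact conditional 95% intervals; a count of 0 allows 3 counts. UMIs stand for molecules, and intervals cover counting error only. Genes with 0 UMIs in a group entered medians at their bound. The named genes were up to 4 per cell cycle list by summed level, up to 10 of largest and smallest ratio with at least 100 CPM and 30 UMIs and on no cell cycle list, and members of the hormone, growth and secretion lists with at least 50 CPM; the text adds members it needs to describe a list, chosen after their values were seen. The members and lists were chosen with earlier results of these data known. The software was matplotlib 3.10.9, pandas 2.3.3, scipy 1.17.1 and numpy 2.4.6 under Python 3.11.15, and the contrasts were tested on simulated data. The values of 1 listed gene are not reported here, and the counts include it.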

Additional observations from a re-analysis of the deposited data

How the results depend on the processing

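No ratio of shares, and no checked gene that was over 2-fold higher or lower, reversed its direction under any alternative run. Genes within 2-fold were not checked for a reversal. The split of higher against lower genes turned in 2 comparisons. For EL over EIS 69.2% of called genes were higher, and 43.8% with no filter; for the EL epithelial-like class 50.5% were higher, and 44.9% by mean CPM per barcode. Of the main results, 53 under planned and 27 under added alternatives moved by less than their interval or 1.5-fold, and 21 and 10 moved by more. With at least 10 UMIs of the rule genes the EL share of dividing barcodes was 0.315% and that of the epithelial-like class 0.629%. Thinned to 2000 UMIs, the shares were 0.205% in EL and 0.0633% in EIS (ratio 3.23), all EL dividing barcodes (100%) were epithelial-like, 0.503% of that class, and 0 of 3 in EIS were stromal-like (0% of the dividing and 0% of the class). With doublets removed 10.2% of EL dividing barcodes were named epithelial-like (0.250% of the class). The value was 0% at resolution 0.5 and with each library clustered alone. With doublets removed and at resolution 0.5, the cluster of most of them, led by PON3 and CLDN10, lost its name. With each library alone, 46 of 49 fell into another unnamed cluster, led by CENPF and TPX2. The value was 98.0% with cell cycle genes kept and 95.9% with dividing barcodes clustered jointly. At resolution 0.5 no class of that name was left, so its share has no value. Chosen by the 4 other genes, the EIS share was 0.554%, the ratio 1.05 and the EIS stromal-like share of its class 7.98%; with 1 gene enough the EIS share was 0.346%.

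Against the class, 1 cell cycle gene was lower and with mean CPM per barcode 0; all lower genes numbered 443, 267 within the cluster and 260 beside barcodes of at least 5000 UMIs. For EL over EIS, cell cycle genes higher in EL numbered 9, against 16 by mean CPM per barcode, 20 with no filter and 28 by the 4 other genes, and those lower 9, against 17, 22 with the 4 other genes and 14 without barcodes of mixed markers. All genes with no filter numbered 2832 higher and 3635 lower, and by the 4 other genes 1174 lower. The cause of these shifts was not tested where no construction shows it. The planned choices by 3 of the rule genes, and by the rule genes without CENPF, were not run, since 2 of the rule genes have a row. No paired analysis was possible because each group is 1 library. Depth limits all shares: a barcode under 2000 UMIs seldom reaches 5 UMIs of the rule genes, and 46 of 49 EL and 18 of 18 EIS dividing barcodes had at least 2000.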
